A study of Homo sapiens with 8 samples.

Results

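The genes described here were 10 of the 58735 genes in the deposited transcript tables: the cytoplasmic actins ACTB and ACTG1 together with 8 small proteins that bind actin or build its filaments, namely TMSB10, TMSB4X, PFN1, CFL1, ARPC2, TPM1, TPM2 and MYL6. They were chosen by name, with gene symbols matched to the gene identifiers through GENCODE release 44, and each gene was measured as the sum of the expected counts of its isoforms. BEAS-2B cells, an immortalised line of human bronchial epithelium, were grown at an air-liquid interface and exposed to humidified clean air (CA) or to air with 1 ppm formaldehyde (FA) for 2 h, after which they were left in fresh medium for 6 h. Extracted RNA was depleted of ribosomal RNA to give the input (IN), and a portion of it was immunoprecipitated (IP) with an antibody against 8-oxo-7,8-dihydroguanine (IP), the oxidised form of guanine abbreviated 8-oxoG. The 4 groups CA_IN, FA_IN, CA_IP and FA_IP held 2 libraries each, numbered 1 and 3. All groups came from 1 cell line, and the control cells carried no treatment beyond clean air. Depth ran from 26152651 to 45144392 expected counts per input library and from 16883500 to 23658012 per pull-down library. All 9 markers of a bronchial epithelial line (keratins, EPCAM, CDH1 and VIM) reached at least 10 counts in all 8 libraries. None of the 6 muscle markers or the 3 endothelial markers did so in all 8, although MYH11, ACTA1, PECAM1 and CDH5 did in some. The summed levels of the muscle and endothelial markers were at most 1.92 and 1.12 CPM (counts scaled to a common library total). Of 5 leukocyte markers CD68 and LCP1 reached 10 counts in all 8 libraries, and the summed level of these 5 was at most 9.04 CPM. The summed level of the epithelial markers was 5700 to 6700 CPM in input and 8040 to 9680 in pull-down libraries, so this sum also moved with the pull-down. With the TMM scaling explained below, EPCAM had means of 45.1 in input and 47.7 in the pull-down. CDH1 had 127.9 and 133.3, and VIM 937.3 and 1027, and the ranges of EPCAM, CDH1 and VIM each overlapped. The part of the shift of the sum in the results below was not tested.

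Actin exists in cells as a monomer and as a filament, and cell shape, adhesion and movement depend on the exchange between them. β-Thymosins (TMSB10, TMSB4X) hold monomers in reserve, profilin (PFN1) hands them to growing filament ends, cofilin (CFL1) severs and disassembles old filaments, and the Arp2/3 complex, of which ARPC2 is a subunit, starts side branches. Tropomyosins (TPM1, TPM2) run along the filament, and MYL6 is an essential light chain of the myosins that pull on it. ACTB (chr7:5526409-5563902, minus strand) and ACTG1 (chr17:81509413-81523847, minus strand; GENCODE 44 on GRCh38) are among the genes most often used as constant references in expression assays.

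The results turned on the thymosin mRNAs, which are short. The coding sequences of TMSB10 (chromosome 2, chr2:84905656-84906671, plus strand) and TMSB4X (chromosome X, chrX:12975110-12977227, plus strand; gene coordinates from GENCODE 44 on GRCh38) hold 132 bases each without the stop codon. They are shown with the first 132 coding bases of MYL6 (chromosome 12, chr12:56158346-56163496, plus strand), another short mRNA, which was not lower in the pull-down. Guanines, the bases that 8-oxoG arises from, are in capitals, and all are read 5′ to 3′ from the GENCODE 44 transcripts of the most abundant isoforms (ENST00000233143, ENST00000451311 and ENST00000547649).
TMSB10: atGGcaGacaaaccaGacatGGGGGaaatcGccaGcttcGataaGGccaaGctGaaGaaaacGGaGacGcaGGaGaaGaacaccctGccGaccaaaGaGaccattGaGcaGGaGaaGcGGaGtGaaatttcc
TMSB4X: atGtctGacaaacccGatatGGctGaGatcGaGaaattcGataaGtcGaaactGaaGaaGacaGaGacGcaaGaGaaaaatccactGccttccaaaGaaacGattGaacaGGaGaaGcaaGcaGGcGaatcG
MYL6: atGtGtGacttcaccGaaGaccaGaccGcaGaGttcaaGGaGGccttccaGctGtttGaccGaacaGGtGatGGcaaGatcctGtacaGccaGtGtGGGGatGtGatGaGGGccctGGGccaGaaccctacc
The thymosin sequences matched at 95 of 132 positions (72.0%), and TMSB10 held 39 guanines against 33 in TMSB4X. The MYL6 stretch held 41 guanines and matched TMSB10 at 40 positions (30.3%), counted without gaps.

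Relative abundance in the input was compared per transcript length, as the deposited TPM (a level per transcript length) summed by gene, in percent of ACTB in the same library. TMSB10 stood highest at 300.0% ± 20.9 of ACTB (SD, n = 4), followed by TMSB4X at 162% ± 2.37 and ACTG1 at 113% ± 7.01. MYL6 reached 105% ± 3.72, CFL1 46.9% ± 2.21, PFN1 36.0% ± 2.12 and TPM2 25.0% ± 2.13. ARPC2 followed at 15.4% ± 0.479 and TPM1 was lowest at 4.77% ± 0.422. Each gene exceeded the next in all 4 input libraries, except ACTG1, which exceeded MYL6 in 3 of 4. In the pull-down the order of the upper genes was different: ACTG1 led at 132% ± 9.11 of ACTB, then MYL6 at 113% ± 2.34, TMSB10 at 102% ± 9.66 and TMSB4X at 82.0% ± 5.18. TMSB10 exceeded ACTB in 1 of 4 pull-down libraries, and these 2 genes could not be ordered there, nor could MYL6 and TMSB10, which kept their order in 3 of 4. The genes from CFL1 downwards kept the same order as in input. The 10 genes together took 0.904% ± 0.034 of all counts in input and 0.997% ± 0.048 in the pull-down (SD, n = 4 each).

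**Figure D1:**
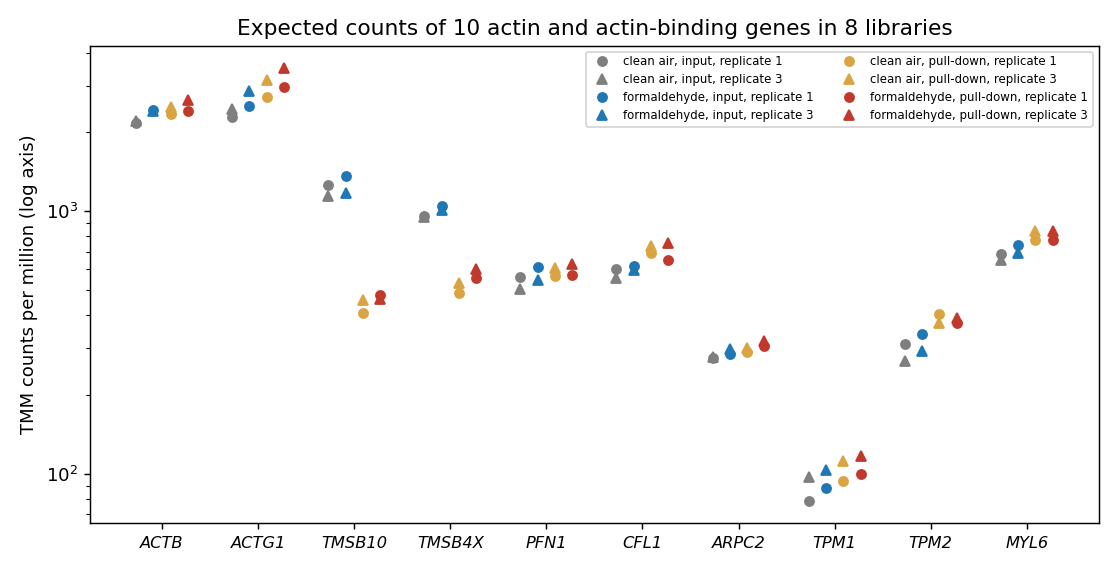
TMM-scaled CPM (log axis) of the 10 genes in each of the 8 libraries, coloured by group, with circles for replicate 1 and triangles for replicate 3. TMSB10 falls from 1140 to 1362 in input to 408 to 480 in the pull-down and TMSB4X from 948 to 1044 to 488 to 601, while the other 8 genes lie at similar or slightly higher levels in the pull-down.

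The first question was which actin-system mRNAs were recovered more or less often with the 8-oxoG antibody than their input level would give. CPM after TMM scaling (a factor per library that centres most genes on no change) were compared within each gene. In input, TMSB10 stood at 1259 and 1140 in clean air and at 1362 and 1174 after formaldehyde, and in the pull-down at 408 and 459 in clean air and 480 and 463 after formaldehyde (replicates 1 and 3, here and in what follows). All 4 pull-down libraries lay below all 4 input libraries, with no overlap. The pull-down was 2.73-fold lower than input averaged over both treatments (log2 fold change −1.45, SE 0.07, edgeR quasi-likelihood test, adjusted p = 1.28e-05). The levels of TMSB4X were 954 and 948 in CA input, 1044 and 1006 in FA input, 488 and 532 in the CA pull-down, and 558 and 601 in the FA pull-down. It was 1.82-fold lower in the pull-down (log2 −0.86, SE 0.06, edgeR adjusted p = 4.86e-05), again without overlap. The decrease of both thymosins was present in clean air and after formaldehyde. For TMSB10 the log2 change was −1.47 (edgeR adjusted p = 0.000205) in CA and −1.43 (adjusted p = 0.000326) in FA. For TMSB4X it was −0.90 (edgeR adjusted p = 0.000582) in CA and −0.82 (adjusted p = 0.0012) in FA. These are shares of each library, not amounts of RNA recovered. Input and pull-down of a sample were portions of the same RNA. Between treatments, fewer cells and less RNA per cell cannot be told apart in such bulk samples.

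TPM2, which encodes a tropomyosin of the filament groove, moved the other way. It gave 313 and 268 in CA input, 339 and 293 in FA input, 404 and 374 in the CA pull-down, and 375 and 390 in the FA pull-down, with every pull-down library above every input library. The rise was 1.27-fold (log2 0.35, SE 0.08, edgeR adjusted p = 0.0326). It missed the threshold without any 1 of 6 of the 8 libraries, all but CA_IN replicate 1 and FA_IN replicate 1, with log2 changes of 0.29 to 0.41 over all 8 omissions. In CA alone and in FA alone it was not past the threshold (log2 0.42 and 0.27, edgeR adjusted p = 0.108 and 0.451).

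The remaining 7 genes had log2 changes between 0.09 and 0.29, all above 0 and none past the threshold. MYL6 gave 688 and 652 in CA input, 743 and 689 in FA input, 774 and 838 in the CA pull-down, and 772 and 842 in the FA pull-down, so its groups did not overlap either (log2 0.22, SE 0.06, edgeR adjusted p = 0.0904). CFL1 had 592.9 ± 26.3 in input and 708.4 ± 47.2 in pull-down libraries (SD, n = 4 each), without overlap and without passing the test (log2 0.26, SE 0.07, edgeR adjusted p = 0.0686). ACTG1 stood at 2525 ± 244 in input and 3081 ± 338 in the pull-down, with overlapping ranges (log2 0.29, SE 0.08, edgeR adjusted p = 0.0999). ACTB gave 2163 and 2193 in CA input, 2427 and 2395 in FA input, 2337 and 2490 in the CA pull-down, and 2391 and 2649 in the FA pull-down. Its pull-down and input libraries overlapped, and its log2 change was 0.11 (SE 0.06, edgeR adjusted p = 0.42). PFN1 (log2 0.09), ARPC2 (0.10) and TPM1 (0.20) overlapped as well. Set against the input of the same RNA, every pull-down library was higher for ACTG1, ARPC2 and TPM1. In FA replicate 1 the pull-down was lower than its input for PFN1 (568 against 610) and ACTB (2391 against 2427). The share of all genes that were higher in every such pair was not counted.

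In all, 1 of the 10 genes was higher and 2 were lower in the pull-down, against 2.15% of the 18242 genes tested that were higher and 3.04% that were lower. Within CA 2 genes were lower and 0 higher, against 1.77% and 0.148% of all genes. Within FA 2 were lower and 0 higher, against 1.47% and 0.0329%. By ranges alone, 3 genes lay higher and 2 lower without overlap between the 4 IP and the 4 IN libraries, where 7.76% and 5.90% of all genes did. With the replicate number as a block, 7 genes passed: both thymosins lower, and ACTG1, CFL1, TPM1, TPM2 and MYL6 higher (edgeR adjusted p of 0.000476, 0.00547, 0.00945, 0.000462 and 0.00957 for these 5). The block also raised the calls over all genes, to 11.7% higher and 6.51% lower. Within CA it gave 5 higher and 2 lower members, against 6.77% and 3.87% of all genes, and within FA 2 higher and 2 lower, against 2.01% and 3.21%. ACTB, PFN1 and ARPC2 did not pass with or without it. Scaling by library size alone moved the median log2 change of all genes from 0.01 to 0.16, and on that scale 8 of the 10 genes passed as higher and the 2 thymosins as lower, against 14.0% and 2.70% of all genes.

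**Figure D2:**
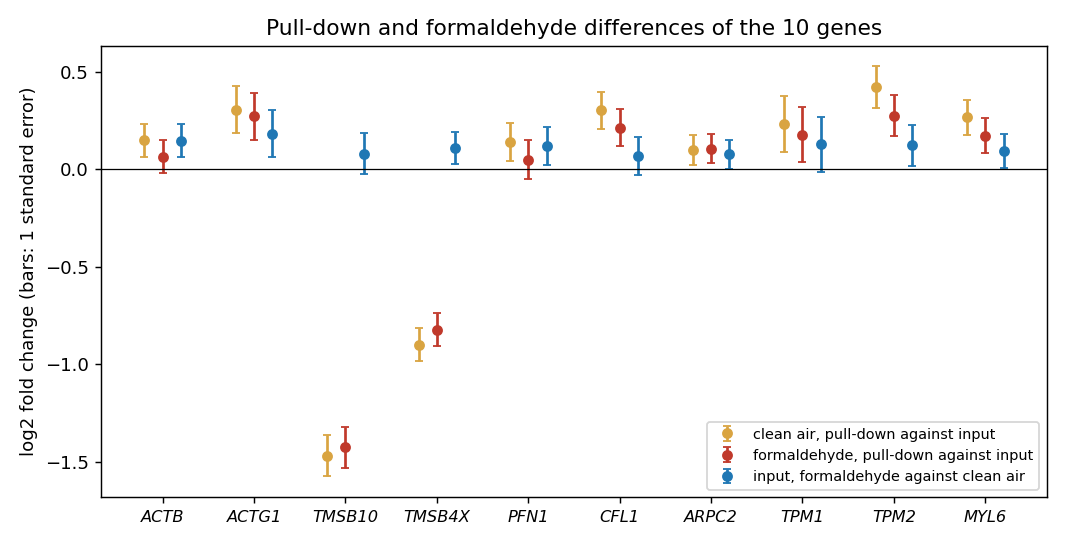
Log2 fold change with 1 standard error (edgeR) for pull-down against input in clean air and after formaldehyde, and for formaldehyde against clean air in input. TMSB10 (−1.47 and −1.43) and TMSB4X (−0.90 and −0.82) stand apart from the other 8 genes, whose pull-down values lie between 0.05 and 0.42, and all input values lie between 0.07 and 0.18.

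Because the thymosin mRNAs are the shortest of the 10, with isoform-weighted lengths of 496 nt for TMSB10 and 639 nt for TMSB4X, the members were set beside all protein-coding genes of like length. The length classes were set after the members' values had been seen. Among 69 tested protein-coding genes under 500 nt, 62.3% were lower in the pull-down and the median log2 change was −1.07. Among 175 genes of 500 to 700 nt, 45.1% were lower with a median of −0.46, and from 700 to 1000 nt 21% were lower. The share lower was 6.55% at 1000 to 1500 nt, 1.45% at 1500 to 2000 nt and 0.393% above. TMSB10 lay at the lower quartile of its class (−1.45), and TMSB4X lay just above the lower quartile of its own (−0.88). At 496 nt TMSB10 was close to the limit of 500 nt, and it lay below the lower quartile of the class above (−0.88). MYL6, with 687 nt, fell into the same length class as TMSB4X and had a log2 change of 0.22, above the upper quartile of that class (−0.0046). Its length was close to the limit of 700 nt, and in the class above (700 to 1000 nt) the median was −0.06 and the upper quartile 0.20. Over all 13835 protein-coding genes, TMSB10 stood at percentile 0.4 of log2 change, TMSB4X at 1.7, MYL6 at 80.6 and TPM2 at 93.7. The 2 actins, of 1791 and 1864 nt, stood at 64 and 88.6. Mean fragment lengths implied by the tables were 217 to 223 nt in input and 210 to 234 nt in pull-down libraries, and their part in the dependence on length was not tested.

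**Figure D3:**
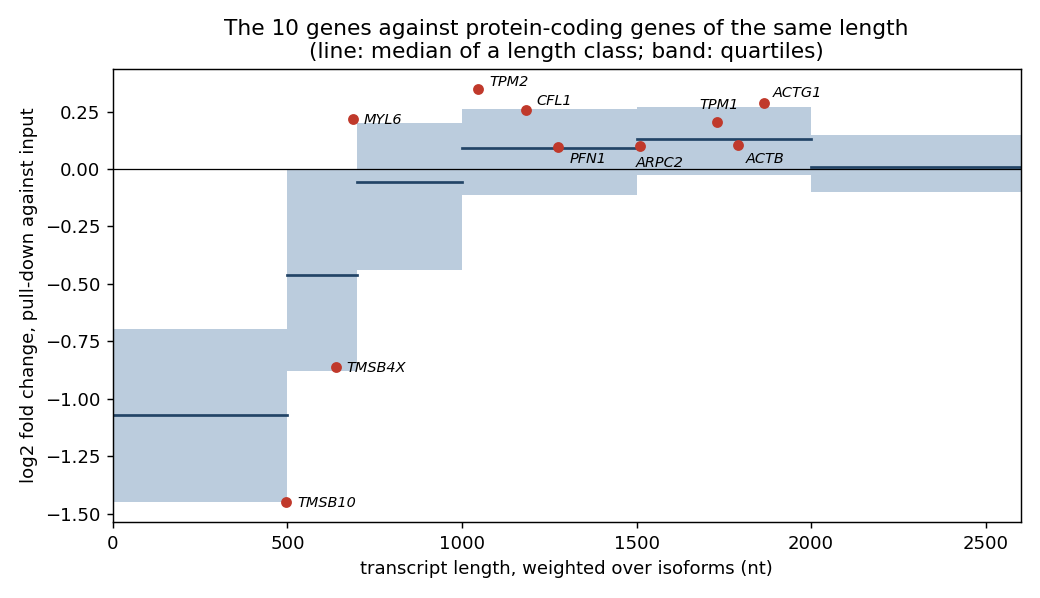
Log2 change of pull-down against input for the 10 genes (points) against isoform-weighted transcript length, over the median (line) and quartiles (band) of all tested protein-coding genes in 6 length classes, the last drawn to the edge of the axis. TMSB10 and TMSB4X follow the low bands of the short classes, whereas MYL6 at 687 nt lies above the band of its class.

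Within each library the thymosins were set against the other 8 genes, which removes the library scale. The mean log2 level of TMSB10 and TMSB4X exceeded that of the other genes by 1.01 and 0.95 in CA_IN and by 1.01 and 0.89 in FA_IN. It lay below them in the pull-down, at −0.47 and −0.42 in CA_IP and −0.27 and −0.40 in FA_IP. The sign changed between fractions in every library, with means of 0.97 ± 0.06 in input and −0.39 ± 0.08 in the pull-down (SD, n = 4 each). Against MYL6 alone, the nearest member in length, the log2 difference of TMSB10 went from 0.83 ± 0.05 to −0.84 ± 0.10, and that of TMSB4X from 0.51 ± 0.04 to −0.57 ± 0.11. The thymosins also differed from each other, as the ratio of TMSB10 to TMSB4X counts was 1.25 ± 0.0754 in input and 0.832 ± 0.043 in the pull-down, without overlap. The ratio of ACTG1 to ACTB, whose coding sequences match at 91.3% of 1125 bases, was 1.1 ± 0.0723 and 1.25 ± 0.0698, and its ranges overlapped. Within each sample this ratio was higher in the pull-down than in the input of the same RNA.

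The guanine share of the main coding sequence was computed for each member as a feature that the choice of genes did not use. It was highest in TPM2 at 35.1%, followed by MYL6 at 32.7%, TPM1 at 31.0% and CFL1 at 30.9%. PFN1 had 30.0%, TMSB10 29.5%, ACTG1 28.4% and ACTB 27.5%. TMSB4X had 25.0% and ARPC2 24.2%. Across the 10 genes the rank correlation of this share with the log2 change in the pull-down was 0.564, that of transcript length was 0.394 and that of the number of coding bases was 0.587. These are descriptions over 10 genes that share their libraries. TMSB10, with the largest decrease, was in the middle of the guanine ranking. Guanines outside the coding part were not counted, and that part held 132 bases in TMSB10 (496 nt) and 1125 in ACTB (1812 nt).

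Among the genes whose levels followed TMSB10 most closely over the 8 libraries (Pearson's r on log2 CPM, given as a description) were OST4 (r = 0.999), NDUFA3 (0.998), TMEM258 (0.998) and DYNLRB1 (0.997). Their isoform-weighted lengths were 472 to 707 nt, and their log2 changes in the pull-down were −1.65 to −1.07. Those nearest to ACTB were IL20RB (r = 0.974), RPS9 (0.973), SH3BP1 (0.971), RPS4X (0.965) and RPL14 (0.964), with log2 changes of 0.08 to 0.34.

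The second question was whether formaldehyde changed the level of these mRNAs in input RNA. All 10 genes had a log2 change above 0 for FA_IN against CA_IN, between 0.07 for CFL1 and 0.18 for ACTG1 (SE 0.07 to 0.14), with a median of 0.11 against 0.02 over all 18242 genes tested. No gene passed (0 of 10, edgeR adjusted p of at least 0.945, 0 at an unadjusted p under 0.05), and over all genes 0.00% were higher and 0.00548% lower. DESeq2 also called 0 of 10. With the replicate number as a block, 0.0767% of all genes were higher and 1.34% lower, and again 0 of the 10 passed (edgeR adjusted p of at least 0.188, ACTB and ACTG1 at an unadjusted p under 0.05). ACTB had 2178 ± 21.2 CPM in CA_IN and 2411 ± 22.6 in FA_IN (SD, n = 2 each), a log2 difference of 0.15 (SE 0.09, edgeR adjusted p = 0.945) with no overlap. ACTG1, TMSB4X, ARPC2 and MYL6 also had both FA_IN libraries above both CA_IN libraries, which made 5 of 10 higher and 0 lower, where 18.1% of all genes lay higher and 15.8% lower in the same way. The value of TMSB10 ran from 1140 to 1259 in CA_IN and from 1174 to 1362 in FA_IN. Compared within replicate numbers, a count made after the data had been seen, all 10 genes were higher after formaldehyde in both pairs of input libraries, where 33.5% of all genes were higher and 28.5% lower in both.

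Formaldehyde was then compared within the pull-down. The log2 changes of FA_IP against CA_IP ran from −0.02 for TPM2 to 0.19 for TMSB4X, and 0 of 10 genes passed (edgeR adjusted p of at least 0.907, 0 at an unadjusted p under 0.05, 0 by DESeq2), as did 0.00% of all genes in either direction. With the replicate number as a block, 0.143% of all genes were higher and 1.94% lower, and 0 of the 10 passed (edgeR adjusted p of at least 0.188, ACTG1 and TMSB4X at an unadjusted p under 0.05). Within replicate numbers 7 of the 10 were higher and 0 lower in both pairs, where 28.9% and 31.5% of all genes were. TMSB10, TMSB4X and ARPC2 were higher in both FA_IP libraries, 3 of 10 genes, where 15.8% of all genes lay higher and 17.2% lower without overlap. The interaction of treatment and pull-down, which asks whether recovery relative to input changed with formaldehyde, lay between −0.15 (TPM2) and 0.08 (TMSB4X) on the log2 scale. It was past the threshold for 0 of 10 genes (edgeR adjusted p = 1, 0 at an unadjusted p under 0.05, 0 by DESeq2) and for 0.00% of all genes. These comparisons share libraries with those above.

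The wider actin system was followed in a list of 69 other genes, of which 63 passed the filter on low counts. In the pull-down 6 were higher and 2 lower, against 2.15% and 3.04% of all genes, with a median log2 change of 0.07 against 0.01. With library size scaling the list gave 25 higher and 1 lower, against 14.0% and 2.70% of all genes. Of 17 tested genes of monomer binding and filament turnover, 4 were higher, among them TWF2 (twinfilin, a monomer-binding protein; log2 0.43, SE 0.09, edgeR adjusted p = 0.0246), CORO1B (a coronin that remodels branches; 0.41, SE 0.08, adjusted p = 0.0175) and GSN (gelsolin, which severs and caps; 0.33, SE 0.07, adjusted p = 0.0417). In the Arp2/3 complex 1 of 8 subunits was higher, ARPC1B (log2 0.32, SE 0.07, edgeR adjusted p = 0.0437). Of 13 crosslinkers and adhesion linkers 1 was higher, the filament-bundling fascin FSCN1, with 205 to 217 CPM in input and 257 to 293 in the pull-down (log2 0.34, SE 0.06, edgeR adjusted p = 0.0119). The lower genes were MYL12B, a regulatory light chain of non-muscle myosin, with 439 to 464 in input and 297 to 329 in pull-down libraries (log2 −0.54, SE 0.06, edgeR adjusted p = 0.000702), and TAGLN2, a transgelin (log2 −0.30, SE 0.07, edgeR adjusted p = 0.0436). Among the 12 nucleators and genes of signalling to SRF the smallest edgeR adjusted p was 0.064. With the replicate number as a block 20 genes of the list were higher and 2 lower, against 11.7% and 6.51% of all genes. Leaving out each library in turn gave 1 to 6 calls: 6 without CA_IP replicate 1, 4 without FA_IN replicate 1, 3 without CA_IN replicate 1 or CA_IP replicate 3, 2 without CA_IN replicate 3, FA_IP replicate 1 or FA_IP replicate 3, and 1 without FA_IN replicate 3. In input 0 of the 63 genes differed between FA and CA (edgeR, 0 at an unadjusted p under 0.05, 0 by DESeq2).

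Isoforms were examined next, since RSEM divides the counts of a gene among its annotated transcripts. The 10 genes had 144 isoforms, of which 136 held a count in some library and 98 passed the filter. TMSB10 had 1 isoform. In ACTB, ENST00000646664 (1812 nt) took 96.5% ± 0.305 of the counts in input and 95.5% ± 0.49 in the pull-down. In ACTG1, ENST00000573283 (1919 nt) took 92.8% ± 0.432 and 90.4% ± 1.07. A single isoform likewise held 97.5% ± 0.35 of PFN1 (ENST00000225655), 99.0% ± 0.198 of TMSB4X (ENST00000451311) and 93.3% ± 0.556 of ARPC2 (ENST00000315717) in input. CFL1 was divided among ENST00000308162 (78.1% ± 0.384 in input), ENST00000531413 (14.2% ± 0.229) and ENST00000525451 (5.70% ± 0.346). MYL6 was divided among ENST00000547649 (61.9% ± 1.92), ENST00000348108 (21.3% ± 1.55) and ENST00000548400 (7.76% ± 0.616). The mean values are over 4 libraries with their SD.

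At the isoform level 1 isoform was higher in the pull-down and 2 were lower, against 0.0663% and 0.516% of 67873 transcripts tested. The lower ones were the main isoforms of TMSB10 (log2 −1.47, SE 0.07, edgeR adjusted p = 0.00168) and TMSB4X (−0.90, SE 0.06, adjusted p = 0.00343). The higher one was ENST00000571691 of ACTG1 (0.97, SE 0.12, edgeR adjusted p = 0.031), with 1.39% to 1.76% of the gene in input and 2.06% to 2.96% in the pull-down. That call was lost in 7 of 8 fits that left out a library. In input 0 isoforms differed between FA and CA (edgeR, 7 at an unadjusted p under 0.05, 0 by DESeq2), as did 0.00% of all transcripts in either direction.

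Isoform shares were tested against the other isoforms of the same gene. In the pull-down 4 member isoforms had a higher share (edgeR diffSpliceDGE), where 0.782% of 61615 transcripts passed in either direction. ENST00000473257 of ACTB, on chromosome 7 (chr7:5527147-5530604, minus strand), held 23.3 and 14.2 expected counts in CA input, none in either FA input library (0 and 0), 22.0 and 148 in the CA pull-down and 113 and 60.2 in the FA pull-down. It made up at most 0.287% of ACTB in any library (edgeR diffSpliceDGE adjusted p = 5.58e-08). With the FA_IN group set to a floor of 3 counts, its share was 75.6-fold higher in FA_IP and 10.1-fold higher in CA_IN. These ratios depend on the chosen floor and are not lower bounds, since RSEM assigns counts among overlapping isoforms by probability. In clean air its share was 7.41-fold higher in the pull-down, although the 22.0 counts of CA_IP replicate 1 lay within the range of CA_IN. The other 3 were ENST00000571691 of ACTG1 (1.56% ± 0.174 of the gene in input and 2.54% ± 0.387 in the pull-down, edgeR diffSpliceDGE adjusted p = 0.0365), ENST00000615544 of ACTG1 (1.18% ± 0.097 and 1.96% ± 0.318, adjusted p = 0.0418) and ENST00000572383 of PFN1 (1.09% ± 0.19 and 2.77% ± 1.64, adjusted p = 0.0178). The PFN1 value was highest in CA_IP replicate 3 at 5.19%, where the other pull-down libraries lay between 1.65% and 2.35%. This test uses 1 spread for all isoforms of a gene, and most of its calls on simulated data were false, so its p-values are not reliable for minor isoforms. When each isoform was given its own spread (limma on the log2 ratio of the isoform to the rest of its gene, chosen after the data had been seen), 0 member isoforms passed (18 at an unadjusted p under 0.05), 0.0918% of transcripts passed, and these 4 had limma adjusted p of 0.112, 0.221, 0.149 and 0.318. On simulated data limma recovered 0% of share changes of log2 1 and 3.23% of those of log2 1.5. Its lack of calls therefore cannot show that shares were unchanged. Leaving out each library in turn gave 1 to 3 calls by diffSpliceDGE: 1 without any single input library or without CA_IP replicate 3, 2 without FA_IP replicate 1, and 3 without CA_IP replicate 1 or FA_IP replicate 3.

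In input 1 isoform had a lower share after formaldehyde, again ENST00000473257 of ACTB (edgeR diffSpliceDGE adjusted p = 0.0176), where 0.169% of transcripts passed. It passed no test with its own spread (limma adjusted p = 0.927, 0.00483% of transcripts), nor without CA_IN replicate 1 or FA_IN replicate 1, and 2 isoforms passed without FA_IP replicate 1 and with the replicate block (0.102% of transcripts with the block). A second rare ACTB isoform, ENST00000425660, a transcript annotated to undergo nonsense-mediated decay, had 15.5 and 7.51 counts in CA input, 0 in both FA input libraries, 7.18 and 0 in the CA pull-down, and 28.4 and 29.1 in the FA pull-down (input share, edgeR diffSpliceDGE adjusted p = 0.225). A decay isoform of TPM1, ENST00000558544, had 54.2 and 16.9 counts in FA_IN and 0 in the other 6 libraries (edgeR diffSpliceDGE adjusted p = 0.318).

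**Figure D4:**
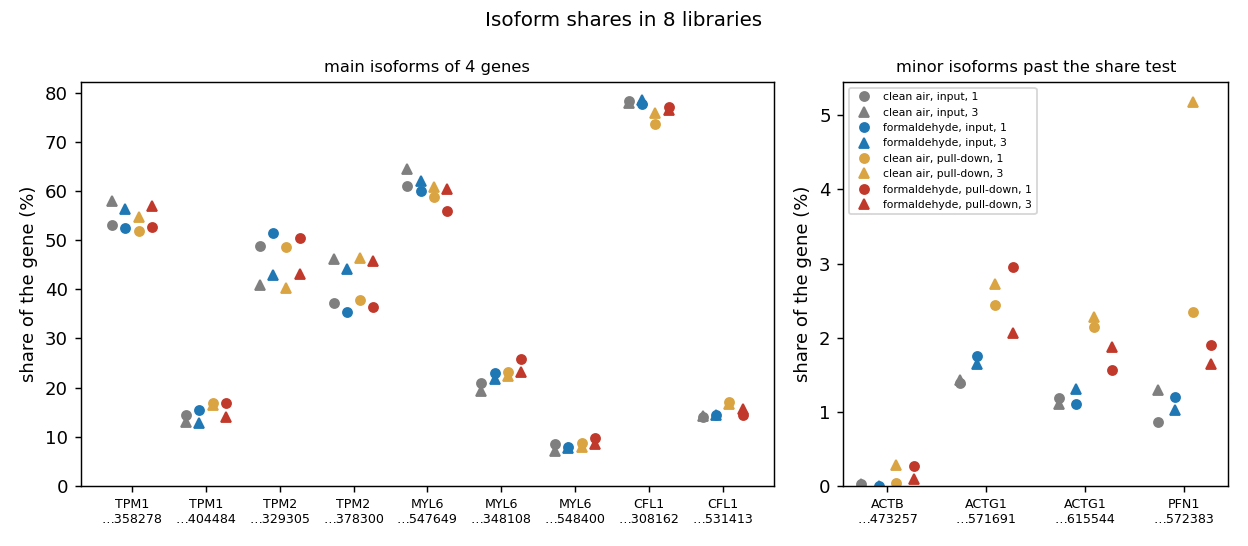
Share of the gene's expected counts (%) held by main isoforms of TPM1, TPM2, MYL6 and CFL1 (left) and by the minor isoforms past the share test (right), each point 1 library, with circles for replicate 1 and triangles for replicate 3; labels give the last 6 digits of the transcript. The TPM2 isoforms separate by replicate number in all 4 groups, at 48.6% to 51.5% and 40.3% to 43.0% for one and 35.5% to 37.8% and 44.1% to 46.3% for the other.

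The tropomyosins had the most divided isoforms. TPM1 isoforms that code for the long, 284-residue form took 65.2% ± 4.2 of its counts in input and 63.9% ± 4.2 in the pull-down, and the short, 248-residue form took 16.6% ± 1.6 and 18.3% ± 1.9 (SD, n = 4 each). The leading TPM1 isoform, ENST00000358278, held 54.5% on average, and ENST00000267996 ranged from 2.11% to 13.8%. TPM2 was split between ENST00000329305 and ENST00000378300, which is not in GENCODE 44. The share of ENST00000329305 was 48.8%, 51.5%, 48.6% and 50.5% in the replicate 1 libraries of CA_IN, FA_IN, CA_IP and FA_IP. In the replicate 3 libraries it was 40.9%, 43.0%, 40.3% and 43.0%. The ranges by replicate number did not overlap in any group, and the share of ENST00000378300 mirrored it. Among 13 member isoforms that made up 5% to 95% of their gene, 3 separated by replicate number (both of TPM2, and ENST00000358278 of TPM1) and 3 by fraction (ENST00000573283 of ACTG1, and ENST00000308162 and ENST00000531413 of CFL1). Over all 24872 such transcripts 4.48% separated by replicate number and 8.00% by fraction. What the replicate number stands for, beyond separate samples, was not given in the labels.

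Finally, the counts of non-coding isoforms (retained introns, processed transcripts and decay targets) were compared with those of coding isoforms of the same gene. The classes came from GENCODE 44, whereas the counts were made on an Ensembl annotation in which some transcripts of the same identifier differ. ENST00000571691 of ACTG1, for example, entered as coding with 1053 coding bases but was counted as a transcript of 761 nt. Non-coding isoforms took 0.564% ± 0.0455 of ACTB in input, 1.52% ± 0.202 of ACTG1, 1.09% ± 0.192 of CFL1, 2.01% ± 0.153 of MYL6, 3.91% ± 0.684 of ARPC2, 6.28% ± 0.758 of TPM2 and 8.58% ± 1.41 of TPM1 (SD, n = 4). For TPM2, up to 48.6% of the counts lay in isoforms without a GENCODE 44 biotype and entered neither class. PFN1, TMSB10 and TMSB4X had no non-coding isoform with counts. In the pull-down the ratio was lower for all 7 genes that could be tested, by log2 values from −0.03 (ACTB) to −0.34 (ARPC2), beside a median of −0.04 over 8351 genes. None of the 7 passed (limma on log2 ratios with a pseudocount of 0.5, adjusted p of at least 0.653, 0 at an unadjusted p under 0.05), and 0.00% of all genes passed in either direction. ACTB and ACTG1 changed sign when single libraries were left out.

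Reads shared with near-identical copies were small. Annotated pseudogenes and related genes (27 for ACTB, 21 for ACTG1) took at most 0.564% of the sum of a member and its copies in any library, the highest value being that of PFN1. Adding their counts to the members changed no call.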

How the data were processed

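Input and 8-oxoG pull-down RNA of BEAS-2B cells was sequenced in 8 libraries, 2 per group. The deposited expected counts per transcript were made by the authors from paired-end reads with cutadapt, STAR 2.6.0a and RSEM 1.2.25 on GRCh38 with Ensembl annotation. The deposited TPM values, which the authors also took from RSEM, served only for levels per length relative to ACTB. RSEM divides a read among transcripts by probability, so shares of near-identical isoforms are less certain than gene sums. Tables of the authors' own comparisons (fold changes and p-values) were not used. Expected counts were summed by gene and rounded. Genes with at least 10 counts in at least 2 libraries (18242 of 35784 with a count) were tested with edgeR 4.0.16 (quasi-likelihood, TMM, all 8 libraries in 1 fit of 4 groups, Benjamini-Hochberg, threshold 0.05), and 67873 transcripts likewise. Isoform shares were tested with edgeR diffSpliceDGE and, chosen after the data were seen, with limma 3.58.1, since most calls of the first on simulated data were false. On the same simulated data limma recovered few of the share changes. Non-coding to coding ratios were tested with limma and a pseudocount of 0.5. The edgeR and limma fitting functions, but not the other steps, were run on simulated data. For pull-down against input, edgeR recovered 94% of gene changes of log2 1 but 8% of transcript changes of that size.

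The coefficient of variation between replicates was 0.138 for genes and 0.551 for transcripts. Input libraries held 26152651 to 45144392 counts and pull-down libraries 16883500 to 23658012. The 2 replicates of a group are biological duplicates per the labels. The p-values of the main fit rest on a spread estimated over all 8 libraries, with information shared across genes. That fit treats input and pull-down of the same RNA as independent. Replicate numbers come from the names of the deposited tables. Differences between replicates 1 and 3 correlated between groups (Pearson's r of 0.455 to 0.766 for the 6 pairs of groups, over 11237 genes), and input and pull-down of a number came from the same RNA, so the numbers pair the samples. The study's methods describe pairwise DESeq2 comparisons and name no block; here 1 edgeR fit over all libraries, without a block, was the main design. The genes and lists were chosen with earlier results of these data known. Named genes were all 10 members, isoforms of at least 5% of a member, isoforms past a test, 3 rare isoforms chosen by name, up to 5 genes of the wider list in each direction, and the 5 genes most like ACTB and TMSB10, of which 1 is not reported here. Alternatives were DESeq2 1.42.0, other scalings and filters, blocks, omitted libraries and added near copies. R 4.3.3 and Python 3.11.15 were used. Sequences came from GENCODE 44 transcripts.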

Additional observations from a re-analysis of the deposited data

How the results depend on the processing

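The decrease of TMSB10 and TMSB4X in the pull-down kept its direction and passed under every alternative run, with log2 changes of −1.501 to −1.29 and −0.89 to −0.70. Of 842 single values under alternatives, 749 kept their direction and side of the threshold and 9 changed sign. Of 188 counts of calls, 151 stayed within 1.5 times. The cause of the changes was not tested. For the 10 genes, averaged over treatments, the main fit called 3, DESeq2 5 and no filter on low counts 5. Library size scaling called 10, and the replicate block and the RNA pool as a block 7 each. Over all 18242 genes the main fit called 393 higher and 554 lower, DESeq2 607 and 541, and library size scaling 2562 and 492. The replicate block called 2134 and 1187, the RNA pool block 2829 and 1758, and factors from protein-coding genes 263 and 564. No filter gave 513 and 779 of 35784 genes. Of the 10 genes in clean air, library size scaling called 6, the replicate block 7 and the RNA pool block 7, against 2. Over all genes these gave 821 higher and 336 lower, 1235 and 706, and 2112 and 1067, against 27 and 322. After formaldehyde the replicate block and the RNA pool block called 4 of the 10 each, against 2. Over all genes they gave 367 higher and 586 lower, and 995 and 840, against 6 and 268. For the wider list, 8 calls became 26 with library size scaling, 5 with factors from protein-coding genes, 22 with the replicate block and 27 with the RNA pool block. Without single libraries they were 1 to 6. The replicate block changed no call of formaldehyde against clean air among the 10 genes. Isoforms called in the pull-down were 5 with a mean count of at least 50, 10 with library size scaling and 15 with DESeq2, against 3. Calls over all transcripts were not counted under these alternatives. Isoforms with a changed share fell from 4 to 0 with limma and were 1 to 3 without single libraries. In input the 1 isoform became 0 with limma, 0 with a mean count of at least 50, 2 with the replicate block and 0 to 2 without single libraries. Values that changed sign without single libraries, none past the threshold, were the input changes of TMSB10 (−0.045 to 0.16) and TPM1 (−0.017 to 0.28), the pull-down change of PFN1 after formaldehyde (−0.0087 to 0.14), and the non-coding ratios of ACTB (−0.18 to 0.11) and ACTG1 (−0.14 to 0.024). A library left out leaves a group of 1, which is assumed to vary like the others. With 2 libraries a group, the input differences of formaldehyde, at most 0.18 on the log2 scale, had standard errors of 0.07 to 0.14, and depth limits the rare isoforms.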
